A study of Homo sapiens with 14 samples.

Results

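The 42 genes described here encode the subunits of the constitutive proteasome, its activator caps and inhibitor, its core assembly factors and NFE2L1, a transcription factor of proteasome genes. The genes were chosen by symbol and not by how they moved, though with earlier results of these data known. Each symbol was mapped to its Ensembl gene identifier in the deposited count table. All 42 were among the 61541 identifiers of the table. All 42 also passed the filter on low counts, which left 19181 genes to test.

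RNA was sequenced from 6 libraries of cells labelled BxPC-3, a human pancreatic cancer line. They comprised 3 libraries labelled shControl, of wild-type genotype, and 3 labelled shHDAC5, of HDAC5 knockdown genotype, all at day 3. Chromatin immunoprecipitation with an antibody to the transcription factor GATA1 was made in cells labelled PANC-1, another pancreatic cancer line, with 1 peak list each for shControl and shHDAC5. The series asks how loss of HDAC5, a class IIa histone deacetylase, acts in pancreatic cancer. Details of the hairpins, their delivery and the separation of the cultures were not given in the sources used here. A p-value therefore sets the difference between the labels against the spread of the 3 libraries within each label. That spread may be technical, so a small p-value does not stand for agreement between independent cultures.

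The proteasome degrades proteins that carry ubiquitin chains. Its 20S core is a barrel in which outer alpha rings gate the entry and inner beta rings hold the cutting sites, and the 19S regulatory particle at its ends binds ubiquitin, removes it, unfolds the substrate and feeds it into the core. Cells that lose proteasome activity are known to raise the transcription of most subunit genes together, through NFE2L1 bound to antioxidant response elements. Pancreatic cancer cells, like other secretory and fast-growing cells, depend on the proteasome for protein quality control.

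Total counts ranged from 15179758 to 17854340 per library, and 25775 to 26078 genes had a count in the shControl libraries against 33115 to 33632 in the shHDAC5 libraries. The targeted gene went against its label. HDAC5 stood at 95.4, 91.7 and 97.7 CPM (counts scaled to a common library size) in the libraries labelled shControl and at 162, 161 and 169 CPM in those labelled shHDAC5, so every direction below is one between labels. The 6 epithelial markers did not point 1 way: EPCAM, CDH1 and KRT19 were under 3 CPM in every library, while the keratins KRT8 (means of 717 CPM under shControl and 1010 CPM under shHDAC5), KRT18 (404 and 327 CPM) and KRT7 (371 and 25.3 CPM) were present, KRT7 at a 14.6-fold lower level under shHDAC5. SMAD4, known to be deleted in BxPC-3, stood at 47.6 to 52.5 CPM under shControl and at 45.9 to 47.4 CPM under shHDAC5, and CDKN2A, also known to be deleted, at 145 to 155 and 13.1 to 14.4 CPM. The summed level of the 6 epithelial markers was 1477 to 1507 CPM under shControl and 1327 to 1395 CPM under shHDAC5, and that of 6 fibroblast markers 120 to 130 and 84.6 to 89.8 CPM, with LUM at 0. The 4 endothelial markers, each under 3 CPM, summed to 1.09 to 1.48 and 3.24 to 4.07 CPM, and the 5 leukocyte markers to 3.32 to 4.19 and 5.26 to 6.68 CPM. What part these differences have in the results on proteasome genes was not tested. In bulk RNA, fewer cells of a type and less RNA per cell cannot be told apart.

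The proteasome genes did not move as a block between the labels. Of the 42 genes, 15 were higher and 19 lower in the libraries labelled shHDAC5, and 8 did not pass the threshold (an adjusted p of 0.05 in the quasi-likelihood test of edgeR, with p-values adjusted by Benjamini-Hochberg over all genes tested). Among all genes tested, 44.8% were higher, 39.9% lower and 84.7% called in either direction, so 34 called genes among 42 lie near the background. The median log2 fold change was -0.046 over the 42 genes and 0.091 over all genes tested, and the median absolute log2 fold change was 0.484 and 0.907. The order of the signed medians depended on which genes were compared. Over genes with a mean of at least 10 CPM the median was -0.13. With the filter at 1 CPM the medians were 0.083 for the 42 genes and 0.0045 for all genes. The median absolute value over genes with a mean of at least 10 CPM was 0.708, still above that of the 42 genes. The split depended on the scaling: 24 genes were higher and 15 lower with total counts as library sizes, 19 and 15 with upper-quartile factors, and 18 and 15 when genes under 1 CPM in any library were removed before scaling. Total counts moved the median of all genes from 0.091 to 0.27 and upper-quartile factors moved it to 0.23. It moved further, to 0.74, with DESeq2, another method of testing, and to 0.68 in edgeR without a filter on low counts. The medians of the 42 genes in those 2 runs were -0.039 and -0.088.

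A change of at least 2-fold was found for 7 of the 42 genes, 3 higher (ADRM1, PSMD3 and PSMA2) and 4 lower (PSMB5, PSMG3, PSMD14 and PSMG1). Among all genes tested 46.5% changed that much, 26.4% higher and 20.1% lower, and among those with a mean of at least 10 CPM 35.7% did. PSMD2 lay just under this limit. The levels of 36 of the 42 genes did not overlap between the groups, where 84.8% of all genes tested did not. The median coefficient of variation of the 42 genes within a group was 3.34% under shControl and 2.81% under shHDAC5, and PSMA2 under shControl had the widest spread, at 36.1%.

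**Figure D1:**
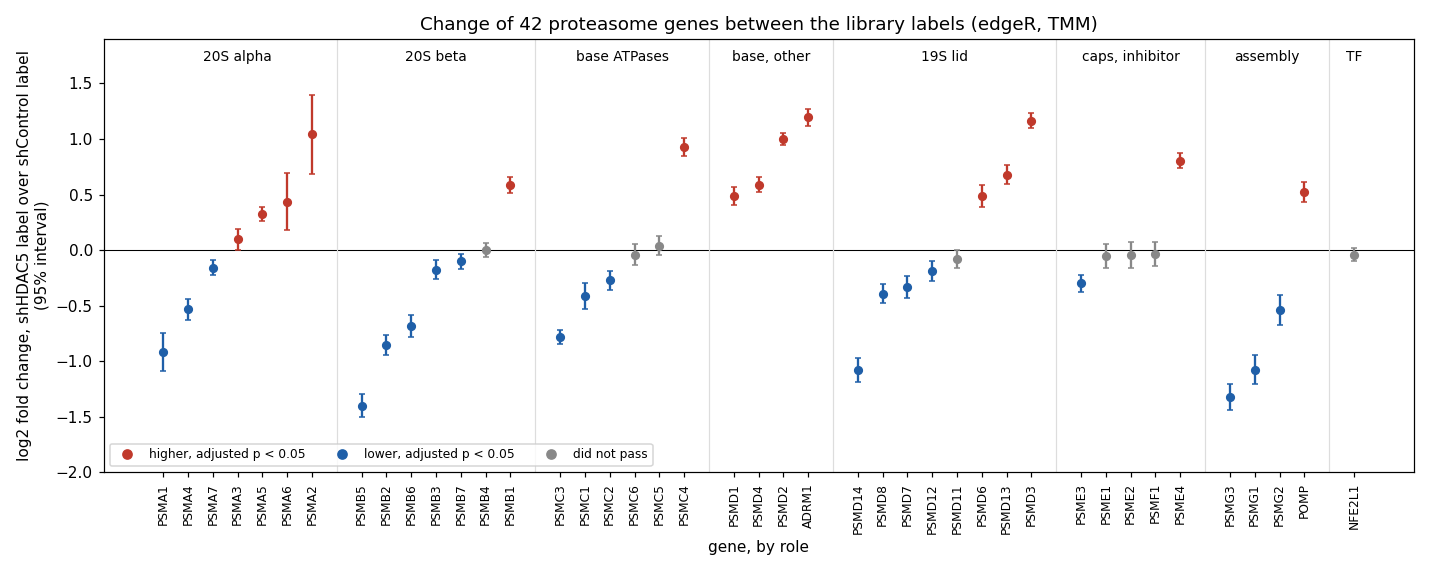
Log2 fold change of the 42 proteasome genes, libraries labelled shHDAC5 over those labelled shControl (3 each), with 95% intervals from edgeR's quasi-likelihood fit; genes are grouped by role on the x axis and coloured by call. All 4 non-ATPase base subunits lie above 0, from 0.48 to 1.19, while the other groups with more than 1 gene hold genes on both sides of 0.

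The 2 rings of the 20S core were described first. The alpha ring subunits, which form the gate and the docking surface of the core, split into 4 higher (PSMA2, PSMA6, PSMA5 and PSMA3) and 3 lower (PSMA1, PSMA4 and PSMA7). PSMA1 (ENSG00000129084) had 24.9, 26.3 and 25.1 CPM under shControl and 15.1, 13.6 and 11.9 CPM under shHDAC5. The groups did not overlap, and PSMA1 fell by 0.91 on the log2 scale (SE 0.0853, adjusted p = 4.44e-18, edgeR quasi-likelihood test, Benjamini-Hochberg).

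PSMA2 (ENSG00000106588) was the least abundant of the 42 genes, with 2.45, 2.17 and 4.10 CPM under shControl and 6.62, 5.78 and 5.81 CPM under shHDAC5, which rest on 38, 31 and 68 counts and on 112, 101 and 104 counts. The third shControl library stood above the other 2, and the groups still did not overlap. The log2 fold change of PSMA2 was 1.04 (SE 0.179, 95% interval 0.69 to 1.40, adjusted p = 1.12e-07, edgeR quasi-likelihood test, Benjamini-Hochberg). PSMA6 was also low, at 6.63, 7.27 and 6.40 CPM against 9.75, 9.39 and 8.27 CPM, and its log2 fold change was 0.44 (SE 0.128, adjusted p = 0.00127 by the same edgeR test). RefSeq places a non-coding readthrough gene, PRORP-PSMA6, on the same strand as PSMA6, and the rule for reads shared by overlapping genes was not given in the sources used here. PSMA6 is not alone in this: 16 of the 42 genes overlap another RefSeq gene. For 5 of them (PSMC1, PSMC2, PSMC5, PSMD1 and PSMG2) a coding gene is among these, and PMPCB lies on the same strand as PSMC2.

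PSMA5 rose by 0.33 and PSMA4 fell by 0.53 on the log2 scale. PSMA7 fell by 0.16, but its sign turned to 0.025 with total counts as library sizes. PSMA3 sat at the threshold, with 57.0, 59.5 and 58.5 CPM under shControl and 65.1, 60.9 and 61.4 CPM under shHDAC5. Its log2 fold change was 0.099 (SE 0.0480, adjusted p = 0.0495, edgeR quasi-likelihood test), and it lost its call when any 1 library was left out, with a log2 fold change of 0.065 without shControl replicate 1 and 0.058 without shHDAC5 replicate 1.

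The beta ring held 1 subunit that was higher, 5 that were lower and 1 that did not pass, and its median log2 fold change was -0.17. It holds the catalytic subunits: PSMB5 cuts after hydrophobic residues (chymotrypsin-like), PSMB6 after acidic residues (caspase-like) and PSMB7 after basic residues (trypsin-like). PSMB5 (ENSG00000100804) had the largest fall of the 42 genes, from 75.2, 81.5 and 79.9 CPM to 29.8, 30.5 and 29.3 CPM. Each shHDAC5 library lay far below each shControl library, and PSMB5 fell by 1.40 on the log2 scale (SE 0.0526, 95% interval -1.50 to -1.30, adjusted p = 2.6e-47, edgeR quasi-likelihood test), a 2.64-fold lower level.

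The other two catalytic subunits were also lower. PSMB6 (ENSG00000142507) stood at 68.9, 77.8 and 74.9 CPM under shControl and at 45.1, 47.0 and 46.1 CPM under shHDAC5, without overlap, and fell by 0.68 (SE 0.0493, adjusted p = 1.07e-24 by the same edgeR test). PSMB7 (ENSG00000136930) stood at 148, 156 and 157 CPM against 146, 140 and 144 CPM, groups that nearly touch. It fell by 0.10 (SE 0.0337, adjusted p = 0.00445, edgeR quasi-likelihood test), but the sign turned to 0.040 with upper-quartile factors, to 0.083 with total counts (called higher, adjusted p = 0.0150) and to 0.029 with the filter at 1 CPM.

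Among the structural beta subunits, PSMB1 rose alone. It had 91.2, 90.7 and 90.2 CPM under shControl and 140, 133 and 136 CPM under shHDAC5, and its log2 fold change was 0.59 (SE 0.0370, adjusted p = 6.56e-29, edgeR quasi-likelihood test). PSMB2 fell by 0.85, and PSMB3 fell by 0.17 but turned to 0.0089 with total counts. PSMB4 stood at 184, 191 and 184 CPM against 182, 190 and 188 CPM. Its groups overlapped, its log2 fold change was 0.0032 (95% interval -0.059 to 0.065) and its adjusted p was 0.926 in the edgeR quasi-likelihood test. PSMB4 was called higher with upper-quartile factors (0.14, adjusted p = 9.45e-06, edgeR), total counts (0.19, adjusted p = 1.85e-08) and the filter at 1 CPM (0.13, adjusted p = 5.21e-05).

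**Figure D2:**
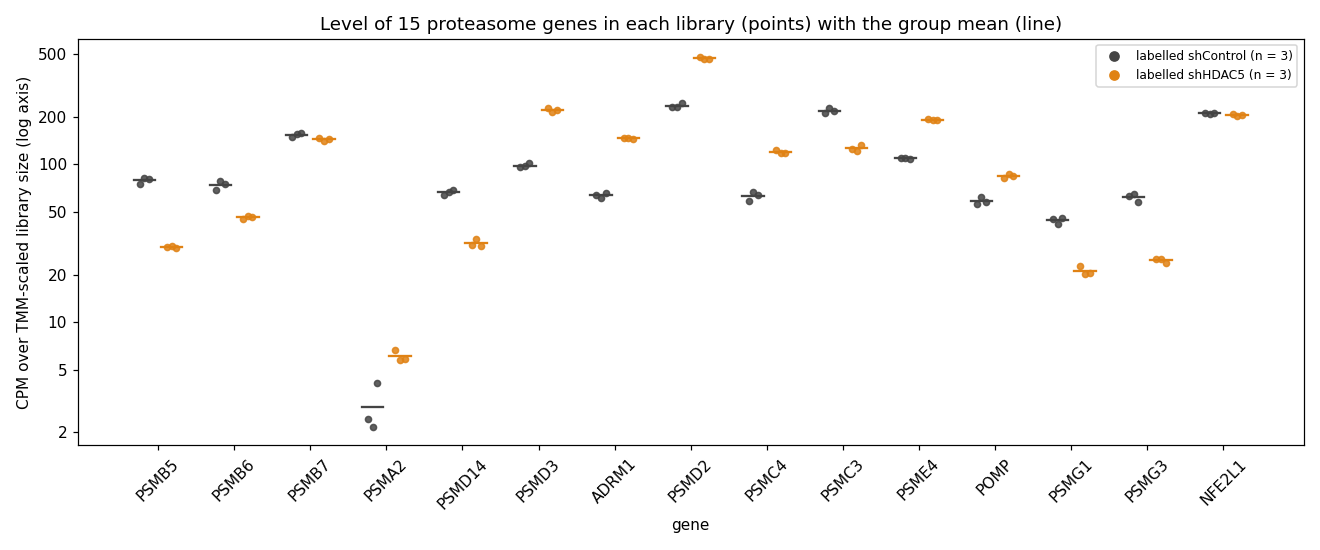
Level of 15 of the proteasome genes in each of the 6 libraries, in CPM on a log axis, with 1 point per library coloured by label and a line at the group mean. PSMB5, PSMG3, PSMD14 and PSMG1 are lower and ADRM1, PSMD3 and PSMA2 higher in all 3 libraries labelled shHDAC5, without overlap between the labels.

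The base of the 19S particle joins an ATPase ring, which unfolds substrates and opens the core, to scaffold and ubiquitin-binding subunits. Of the 6 ATPases, 1 was higher, 3 were lower and 2 did not pass. PSMC4 (ENSG00000013275) rose from 58.0, 66.7 and 63.7 CPM to 123, 118 and 117 CPM, without overlap (log2 fold change 0.93, SE 0.0421, adjusted p = 3.89e-40, edgeR quasi-likelihood test). PSMC3 (ENSG00000165916) went the other way, from 212, 226 and 215 CPM to 125, 121 and 133 CPM, and fell by 0.78 (SE 0.0332, adjusted p = 9.77e-43 by the same edgeR test). These 2 subunits of 1 ring moved in opposite directions, each by more than the spread of its libraries.

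PSMC1 fell by 0.41 and PSMC2 by 0.27. PSMC5 stood at 77.4, 76.5 and 74.1 CPM against 76.4, 80.9 and 76.6 CPM, with overlap and a log2 fold change of 0.038 (95% interval -0.047 to 0.12, adjusted p = 0.404, edgeR quasi-likelihood test), and it was called higher in the same 3 settings as PSMB4 (0.18, 0.22 and 0.17). PSMC6 stood at 60.4, 72.4 and 69.8 CPM against 68.9, 64.6 and 63.3 CPM, also with overlap. Its log2 fold change was -0.041 (95% interval -0.14 to 0.055, adjusted p = 0.425 by the same edgeR test), and it was called higher with upper-quartile factors (0.099) and total counts (0.14) and lower without shControl replicate 1 (-0.13, adjusted p = 0.0127, edgeR).

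All 4 of the other base subunits rose, the scaffolds PSMD1 and PSMD2 and the ubiquitin receptors PSMD4 and ADRM1, with a median log2 fold change of 0.79. ADRM1 (ENSG00000130706), the receptor that also docks the deubiquitinase UCHL5, had the largest rise of the 42 genes. It went from 64.1, 61.3 and 65.9 CPM to 147, 146 and 145 CPM (log2 fold change 1.19, SE 0.0392, 95% interval 1.12 to 1.27, adjusted p = 1.35e-52, edgeR quasi-likelihood test). The shHDAC5 libraries lay close together and far above every shControl library.

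PSMD2 (ENSG00000175166), the scaffold that receives shuttle proteins, rose from 228, 230 and 242 CPM to 474, 463 and 464 CPM (log2 fold change 1.00, SE 0.0276, adjusted p = 1.6e-59, edgeR quasi-likelihood test). PSMD1, the other large scaffold, had the smallest rise of these subunits, from 77.4, 74.2 and 70.6 CPM to 104, 102 and 104 CPM (log2 fold change 0.48, SE 0.0411, adjusted p = 2.24e-20 by the same edgeR test). PSMD4 rose by 0.59. None of these subunits overlapped between the labels.

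The lid, which removes ubiquitin chains, held 3 subunits that were higher (PSMD3, PSMD13 and PSMD6), 4 that were lower (PSMD14, PSMD8, PSMD7 and PSMD12) and 1 that did not pass. PSMD14 (ENSG00000115233), the deubiquitinase of the lid, went from 63.8, 67.0 and 68.7 CPM to 30.6, 33.3 and 30.5 CPM. It fell by 1.08 (SE 0.0546, 95% interval -1.19 to -0.97, adjusted p = 2.34e-36, edgeR quasi-likelihood test). PSMD7, the inactive partner that pairs with PSMD14, fell by 0.33.

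PSMD3 (ENSG00000108344), a scaffold subunit of the lid, rose from 96.1, 96.7 and 101 CPM to 226, 212 and 220 CPM (log2 fold change 1.16, SE 0.0341, adjusted p = 3.35e-57, edgeR quasi-likelihood test). Its groups were far apart, as were those of PSMD14 in the opposite direction. PSMD13 rose by 0.68 and PSMD6 by 0.49, while PSMD8 fell by 0.39. PSMD12 fell by 0.19, but it did not pass with upper-quartile factors (-0.049, adjusted p = 0.298, edgeR), total counts (-0.0056, adjusted p = 0.908) or the filter at 1 CPM (-0.060, adjusted p = 0.199).

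PSMD11, a lid subunit that contacts the core, stood at 92.8, 91.2 and 91.4 CPM against 85.8, 88.7 and 86.0 CPM. Its groups did not overlap, yet its log2 fold change of -0.080 (95% interval -0.16 to -0.00050) had an adjusted p of 0.0571 in the edgeR quasi-likelihood test, and its call depended on the setting. PSMD11 was called lower without a filter (-0.12, adjusted p = 0.0192, edgeR) and without shControl replicate 2, shControl replicate 3 or shHDAC5 replicate 2 (each -0.10, adjusted p = 0.0243, 0.0331 and 0.0279), and higher with total counts (0.10, adjusted p = 0.0122).

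The core can also carry other caps. PSME4, the PA200 cap that binds acetylated histones in some tissues, rose from 110, 109 and 108 CPM to 193, 189 and 189 CPM (log2 fold change 0.80, SE 0.0336, adjusted p = 2.48e-43, edgeR quasi-likelihood test). PSME3, the nuclear PA28 gamma cap, fell from 112, 106 and 116 CPM to 89.8, 90.6 and 92.4 CPM, by 0.30 on the log2 scale (SE 0.0389, adjusted p = 2.2e-11 by the same edgeR test). Neither gene overlapped between the labels.

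PSME1 and PSME2, which form the interferon-inducible PA28 cap, did not pass. PSME1 stood at 44.1, 49.3 and 49.5 CPM against 46.6, 44.7 and 46.7 CPM (log2 fold change -0.051, 95% interval -0.16 to 0.058, adjusted p = 0.382, edgeR), and PSME2 at 38.5, 39.3 and 37.8 CPM against 37.1, 37.8 and 37.3 CPM (-0.042, 95% interval -0.16 to 0.075, adjusted p = 0.502). PSMF1, the PI31 protein first described as an inhibitor of the core, stood at 46.7, 42.5 and 44.2 CPM against 42.9, 44.3 and 43.1 CPM (-0.034, 95% interval -0.14 to 0.077, adjusted p = 0.572). The groups of these genes overlapped, and with total counts all 3 were called higher (0.13, 0.14 and 0.15).

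Of the 4 assembly factors of the core, 3 were lower and 1 higher. PSMG1 and PSMG2 form the chaperone pair on which the alpha ring is built, and PSMG3 acts in a further chaperone pair. PSMG3 (ENSG00000157778) fell from 62.4, 64.5 and 57.6 CPM to 25.1, 25 and 23.8 CPM, by 1.32 (SE 0.0590, adjusted p = 1.04e-40, edgeR quasi-likelihood test). PSMG1 (ENSG00000183527) fell from 45.1, 42.1 and 45.3 CPM to 22.5, 20.04 and 20.4 CPM, by 1.08 (SE 0.0664, adjusted p = 1.39e-29 by the same edgeR test). PSMG2 fell by 0.54.

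POMP (ENSG00000132963), the maturation protein of the core, went the other way. It rose from 56.2, 62.2 and 57.8 CPM to 81.7, 86.7 and 84.5 CPM (log2 fold change 0.52, SE 0.0453, adjusted p = 6.21e-20, edgeR quasi-likelihood test), and its groups did not overlap. NFE2L1 (ENSG00000082641), the transcription factor, stood at 210, 209 and 210 CPM against 207, 201 and 203 CPM. Its log2 fold change was -0.040 (95% interval -0.10 to 0.019, adjusted p = 0.205, edgeR quasi-likelihood test), but NFE2L1 was called higher under upper-quartile factors (0.10, adjusted p = 0.00105), total counts (0.14, adjusted p = 3.91e-06) and the filter at 1 CPM (0.089, adjusted p = 0.00346). NFE2L1 is controlled largely after transcription, and these counts measure its RNA alone.

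**Figure D3:**
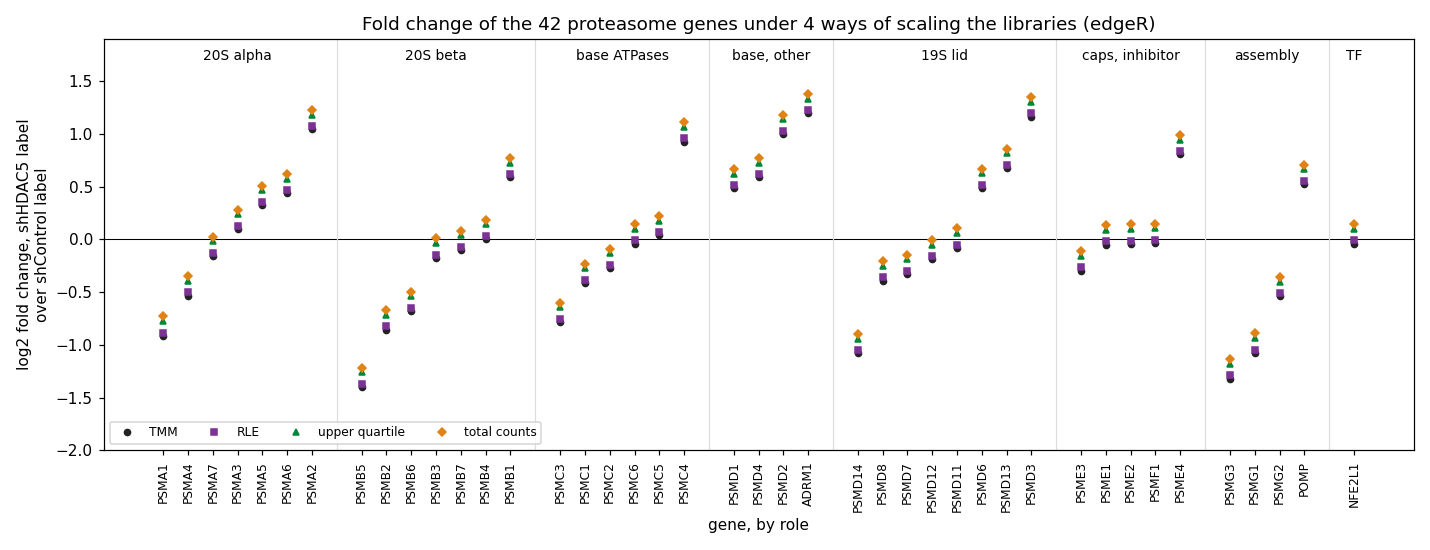
Log2 fold change of the 42 genes, shHDAC5 over shControl label, under 4 ways of scaling the libraries (TMM, RLE, upper-quartile factors and total counts), by role. Upper-quartile factors and total counts shift all genes upward together, so genes near 0 such as NFE2L1 and PSMB7 change sign while ADRM1 and PSMB5 stay far from 0.

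Of the 42 genes, 28 had the same call under every alternative run other than the 2-fold limit, 13 higher and 15 lower. The sign was the same under all of them for 31. Summed over the 42 genes, the level was 3631 ± 59.0 CPM under shControl and 3981 ± 39.6 CPM under shHDAC5 (SD, n = 3 each), a ratio of 1.10. Without PSMD2 the sums were 3397 ± 55.0 and 3514 ± 34.5 CPM, a ratio of 1.03. These ratios depended on the scaling: as a share of total counts the 42 genes went from 0.340% to 0.423%, a ratio of 1.24, and without PSMD2 from 0.318% to 0.373%, a ratio of 1.17. The non-ATPase base subunits went from 494 to 900 CPM in sum (ratio 1.82, or 2.07 as a share of total counts). The assembly factors went from 198 to 153 CPM (ratio 0.773, or 0.876 as a share). The beta ring went from 756 to 664 CPM (ratio 0.878), but as a share of total counts its libraries overlapped, at 0.0695% to 0.0723% and 0.0702% to 0.0708% (ratio 0.995).

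Subunits present in equal number in each ring can be compared only per length, here as CPM per kilobase of the gene length in the deposited table. The beta ring ran from 21.0 CPM per kilobase for PSMB2 to 87.7 for PSMB4 under shControl, a 4.17-fold range. Under shHDAC5 it ran from 11.6 for PSMB2 to 87.9 for PSMB4, a 7.55-fold range. In the alpha ring PSMA2, at 0.347 and 0.725 CPM per kilobase under the 2 labels, and PSMA6, at 1.04 and 1.40, lay far below PSMA7, at 95.9 and 85.9. The gene length counts all annotated exons, so a gene with long rarely used exons gets a low value per length. PSMA2 and PSMA6 were lowest in the alpha ring before this division too. Their means were 2.91 and 6.76 CPM under shControl, where PSMA1, the next lowest, had 25.4 CPM. The cause of these low counts was not tested.

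**Figure D4:**
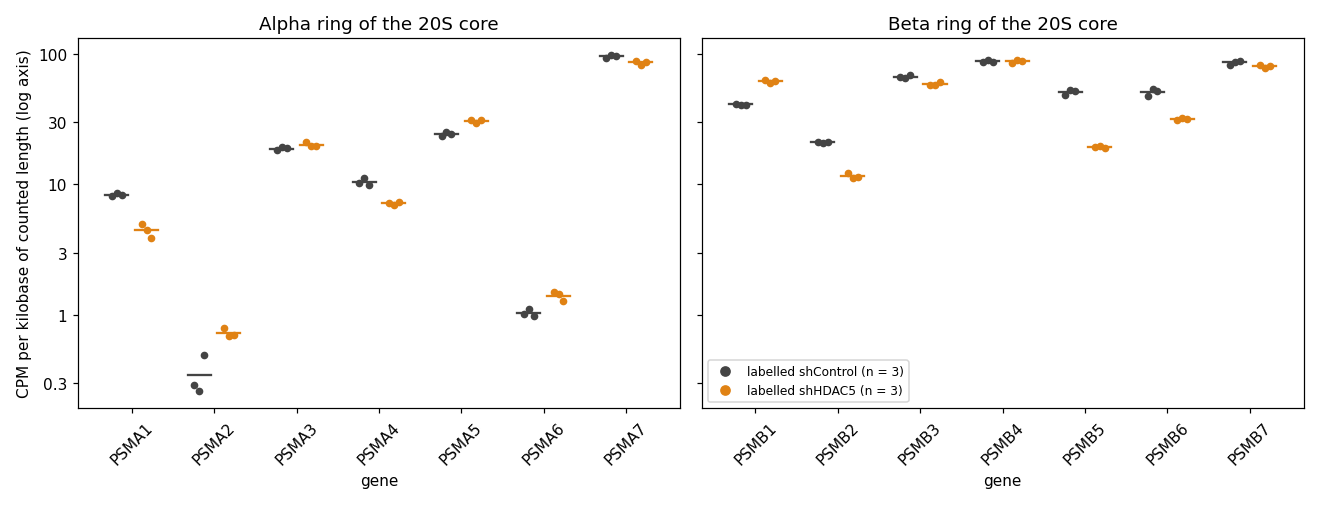
Level per gene length of the 7 alpha ring (left) and 7 beta ring subunits (right), in CPM per kilobase on a log axis, with 1 point per library and a line at the mean of each label (n = 3). PSMA2 and PSMA6 lie lowest under both labels, and PSMA7 and PSMB4 highest in their rings.

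Other genes of the pathway, from lists that are not part of the 42, also moved in both directions. Of the 4 immunoproteasome and thymoproteasome subunits, which replace the catalytic subunits in immune cells or thymus, 3 were tested, with 1 higher and 2 lower. PSMB8, the counterpart of PSMB5, fell from 18.3, 21.1 and 18.8 CPM to 4.37, 4.24 and 5.42 CPM (by 2.04, adjusted p = 4.38e-32, edgeR quasi-likelihood test). PSMB9, the counterpart of PSMB6, rose from 2.25, 2.17 and 3.20 CPM to 7.86, 5.73 and 6.88 CPM (1.41, adjusted p = 5.58e-12). PSMB10, the counterpart of PSMB7, fell from 3.93, 2.72 and 3.26 CPM to 0.827, 0.973 and 0.783 CPM (by 1.93, adjusted p = 2.06e-10), and PSMB11 was too low to test.

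Of 7 further subunits and assembly factors 6 were tested, with 1 higher (SEM1, by 0.27), 3 lower and 2 that did not pass. PAAF1, PSMD5 and PSMD10, which bind ATPases during base assembly, fell by 1.02, 0.69 and 0.33. All 12 proteasome-bound enzymes, regulators and importers were tested, with 8 higher and 4 lower. ECPAS, which tethers the core to the 19S particle, went from 208, 197 and 200 CPM to 19.3, 18.7 and 19.9 CPM and fell by 3.39 (adjusted p = 3.13e-89, edgeR quasi-likelihood test). UCHL5, the deubiquitinase that ADRM1 docks, fell by 1.15 while ADRM1 rose, and PITHD1 rose by 1.36.

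Of 9 shuttle receptors, which carry ubiquitinated proteins to the 19S particle, 8 were tested, with 2 higher and 6 lower. UBQLN4 fell by 0.95, and SQSTM1, also a receptor for autophagy, rose by 0.50. All 18 genes for NFE2L1 processing and partners were tested, with 11 higher and 7 lower. OGT, which adds sugar groups to nuclear proteins, fell by 1.85, SEL1L, a part of the machinery that clears proteins from the endoplasmic reticulum, rose by 1.72, and NFE2L3, a relative of NFE2L1, rose by 3.60. Of the 6 ubiquitin genes and activating enzymes 4 were higher and 2 lower: UBA1 rose by 0.78, UBA6 rose by 0.61 and RPS27A fell by 0.66. These counts, too, lie beside a background of 84.7% called.

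**Figure D5:**
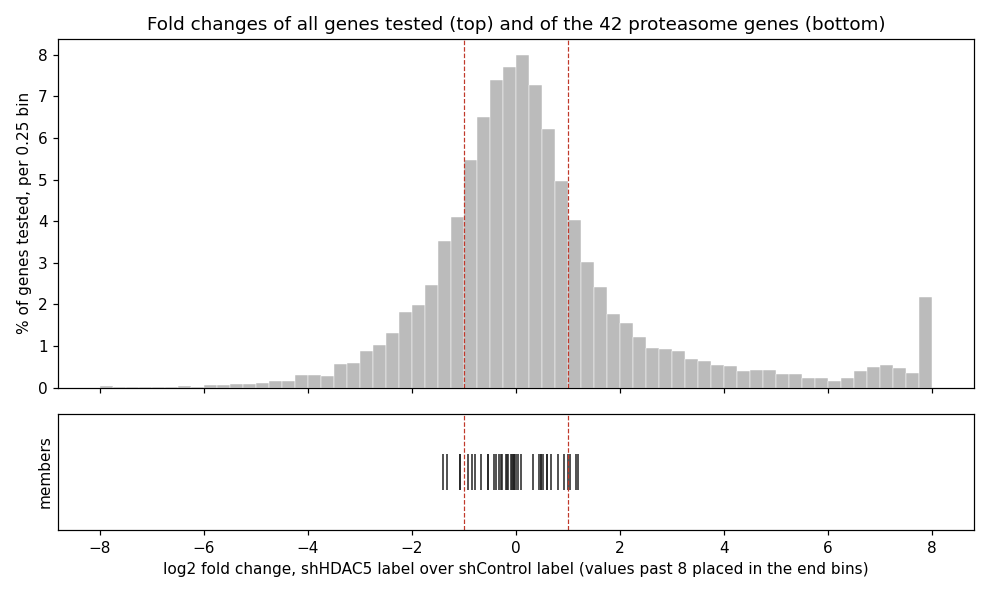
Distribution of the log2 fold change, shHDAC5 over shControl label, over the 19181 genes tested (bars, percent of genes per bin, with values past 8 in either direction placed in the end bins) and, below on the same axis, 1 tick for each of the 42 proteasome genes. Dashed lines mark a 2-fold change. The 42 genes span -1.40 to 1.19, within the wider range of all genes.

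Promoter sequences show which members share letters that known regulators read. RefSeq promoters (GRCh38.p14, from 250 bases before to 50 after the start) were matched for 36 of the 42 genes. The windows of ADRM1, PSMD3 and PSMD14 are shown because they hold 2 motifs each and these genes changed most among such members. The 250 bases before the start are chr20:62302646-62302895 for ADRM1, chr17:39980557-39980806 for PSMD3 and chr2:161308175-161308424 for PSMD14, all on the plus strand. Capitals mark TGACNNNGC, the antioxidant response element, and CCAAT, the NF-Y box, on either strand.
ADRM1: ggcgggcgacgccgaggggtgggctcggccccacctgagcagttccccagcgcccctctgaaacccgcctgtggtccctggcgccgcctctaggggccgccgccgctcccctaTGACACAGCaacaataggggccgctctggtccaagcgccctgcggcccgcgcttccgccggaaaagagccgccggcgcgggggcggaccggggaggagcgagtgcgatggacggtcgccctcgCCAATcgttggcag
PSMD3: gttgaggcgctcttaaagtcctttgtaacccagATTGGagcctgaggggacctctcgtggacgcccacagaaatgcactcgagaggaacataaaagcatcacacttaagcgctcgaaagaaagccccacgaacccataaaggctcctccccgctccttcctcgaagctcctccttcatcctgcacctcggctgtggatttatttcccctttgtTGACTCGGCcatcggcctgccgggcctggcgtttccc
PSMD14: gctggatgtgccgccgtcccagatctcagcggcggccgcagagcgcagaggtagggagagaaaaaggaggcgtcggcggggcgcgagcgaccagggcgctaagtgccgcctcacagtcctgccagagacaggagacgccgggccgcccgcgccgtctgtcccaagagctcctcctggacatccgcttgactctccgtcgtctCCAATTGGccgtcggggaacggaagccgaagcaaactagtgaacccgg

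In ADRM1 the antioxidant response element lies 137 to 129 bases before the start, and in PSMD3 it lies 37 to 29 bases before it. PSMD3 holds a further match after its start, on the opposite strand, which is not shown. The capitals of PSMD14 are a pair of CCAAT boxes that overlap on opposite strands, and its second motif, the ETS core, reaches past the start and is not shown. The antioxidant response element was found in 11 of the 36 windows (30.6%). Among all 27305 promoters searched 13.6% held it, and among the 15843 of coding genes 14.3%. Among all genes tested 44.8% were higher and 39.9% lower. Of the 11 genes with the element 5 were higher, 4 lower and 2 did not pass. In 9 of them a match lies wholly before the start, and these sites are shown with 10 flanking bases to compare the letters inside the element, read along the gene's strand. Capitals mark the match, which in PSME4 is on the opposite strand.
ADRM1 (chr20:62302749-62302777, plus strand): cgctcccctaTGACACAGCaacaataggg
PSMD3 (chr17:39980760-39980788, plus strand): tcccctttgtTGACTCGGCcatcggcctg
PSME4 (chr2:53971009-53971037, minus strand): cccggcggctGCAGCGTCAccagcagagc
PSMG1 (chr21:39183616-39183644, minus strand): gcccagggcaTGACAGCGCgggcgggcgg
PSMG2 (chr18:12658689-12658717, plus strand): cagtttcccgTGACCCCGCggccgctctg
PSMD12 (chr17:67366724-67366752, minus strand): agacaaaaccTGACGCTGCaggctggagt
PSMB3 (chr17:38752627-38752655, plus strand): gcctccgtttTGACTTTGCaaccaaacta
PSME1 (chr14:24136098-24136126, plus strand): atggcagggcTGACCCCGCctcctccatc
PSME2 (chr14:24146767-24146795, minus strand): ccctggactgTGACCCAGCcagcaccgcc

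The first 3 of these genes rose, PSMG1, PSMG2, PSMD12 and PSMB3 fell, and PSME1 and PSME2 did not pass. The NF-Y box was found in 18 of 36 windows (50%, against 35.7% of all promoters and 36.4% of coding ones). Of these genes 6 were higher, 10 lower and 2 did not pass. CCGGAAG, the core read by ETS factors, was found in 11 windows (30.6%, against 10.7% of all and 14.2% of coding promoters). Of these genes 4 were higher, 6 lower and 1 did not pass. GATAAG, a core read by GATA factors, was found in 1 window, that of PSMC6 (2.78%, against 6.36% and 5.15%). The palindromic motif of nuclear respiratory factor 1, a protein distinct from NFE2L1, was found in that of PSMA4 (2.78%, against 1.36% and 1.75%). The calls of genes that hold a motif lie beside 44.8% higher and 39.9% lower among all genes tested. Both strands were searched for each motif. A match is a description of the letters and not a measured site.

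The GATA1 peak lists give 1 list per condition, so they hold no replicate. Their labels and contents contradict each other. The list labelled shControl belongs to samples titled NC, but its peak names carry SAHA, a deacetylase inhibitor. The peak names in the list labelled shHDAC5 carry NC, the title of the control samples. A peak with its summit within 1 kb of either gene end was found for 24 of 42 genes (57.1%) in the list labelled shControl, where 52.1% of coding genes had one. It was found for 24 genes (57.1%) in the list labelled shHDAC5, where 33.9% had one. These counts take every listed peak, whatever its q. The list labelled shControl held 121070 peaks, 6176 of them at a q of at most 0.05, and that labelled shHDAC5 held 249139 and 1045. Of the peaks counted at the 42 genes, 2 of 33 and 1 of 29 had such a q. In all 14 genes (33.3%) had a peak in both lists, where 19.7% of coding genes did. Within 5 kb of a gene end the counts were 33 genes (where 70.6% of coding genes had one) and 38 genes (where 77.3% had one), and among the 36 genes with a RefSeq promoter entry 14 (38.9%) and 15 (41.7%) had a summit within 1 kb of the first start listed there (where 46.6% and 22.5% of coding genes had one).

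Few of these peaks passed a q of at most 0.05. In the list labelled shControl they were those of PSMC4 and ADRM1, where 6.50% of coding genes had one, and in the list labelled shHDAC5 that of PSMC4 alone, where 0.255% had one. The peak at PSMC4 spanned chr19:39970267-39971827 (hg38) in the list labelled shControl, with its summit 288 bases after the start, a fold enrichment of 3.05 and a −log10 q of 8.27, as given by the authors. In the other list it spanned chr19:39971223-39972014, with its summit 300 bases after the start, a fold enrichment of 2.10 and a −log10 q of 1.74. The peak at ADRM1 in the list labelled shControl spanned chr20:62302890-62304137, with its summit 387 bases after the start, a fold enrichment of 4.92 and a −log10 q of 2.50. The RNA of PSMC4 and ADRM1 was higher under the shHDAC5 label in cells labelled as another line, where 44.8% of all genes tested were higher. A link between peak and RNA was not tested.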

How the data were processed

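RNA-seq counts per gene were deposited by the authors as 1 table for 6 libraries. Per the submitters' processing notes, fastp 0.23.2, FastQC 0.11.9, featureCounts 2.0.1, deepTools 3.5.0 and MACS2 2.2.7.1 were used with hg38. The aligner, annotation release and strandedness were not given in the sources used here; reads of overlapping and antisense genes cannot be told apart. The fold enrichment and the −log10 q of each peak are values the authors deposited, 1 list per condition.

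Counts were filtered (filterByExpr), scaled (TMM factors 0.929 to 1.07) and tested with edgeR 4.0.16 in R 4.3.3, with Benjamini-Hochberg adjustment over 19181 genes and a threshold of 0.05. The fit and its calls were tested on simulated data; the pass mark for genes made 2-fold lower was missed at first and relaxed after that run. CPM were taken over TMM-scaled library sizes. Members and lists were chosen with earlier results of these data known. Values per library are given for the largest rise and fall of each role, the catalytic subunits, PSMD14, POMP, NFE2L1, ADRM1 and members that did not pass. Other lists are shown by up to 3 genes of the smallest adjusted p (1 such gene is not reported here), and promoters by the number of different motifs. Alternatives were DESeq2 1.42.0, other scalings and filters, stricter limits, a replicate block, left-out libraries and added pseudogene counts.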

Additional observations from a re-analysis of the deposited data

How the results depend on the processing

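The median log2 fold change of the 42 genes, -0.046, was -0.015 with RLE size factors, -0.088 without a filter on low counts, 0.094 with upper-quartile factors, 0.14 with total counts and 0.083 with the filter at 1 CPM, and ran from -0.10 to -0.056 when each library was left out in turn. Genes higher numbered 24 with total counts. At the 2-fold limit 3 were higher and 4 lower, and over all genes 5071 and 3846. Signs turned for some genes that were called in the main run or in the alternative. With upper-quartile factors these were PSMB7 (0.040), PSMC6 (0.099) and NFE2L1 (0.10). With total counts they were PSMA7 (0.025), PSMB3 (0.0089), PSMB7 (0.083), PSMC6 (0.14), PSMD11 (0.10), PSME1 (0.13), PSME2 (0.14), PSMF1 (0.15) and NFE2L1 (0.14). With the filter at 1 CPM they were PSMB7 (0.029) and NFE2L1 (0.089). Genes called in neither run could turn too, as PSMD11 (0.060), PSME1 (0.090), PSME2 (0.098) and PSMF1 (0.11) did with upper-quartile factors. PSMB4 and PSMC5 gained a call as higher in these 3 settings. These scalings shift all genes together, by their construction. Genes with a peak numbered 2 (list labelled shControl) and 1 (shHDAC5) at a q of at most 0.05, 38 within 5 kb (shHDAC5), and 14 and 15 within 1 kb of the RefSeq start, an alternative chosen after seeing the data, as was the motif window that ends at the start, where 0 genes held the GATA and 0 the NRF1 motif. The cause of other changes was not tested. Over all genes tested, deviations from the group mean hardly correlated between same-numbered libraries (-0.013, 0.0026 and 0.0059). Counting noise enters these correlations and each label has 3 libraries, so they do not show whether the cultures were paired. With the replicate block 14 genes were higher and 19 lower, and over all genes 8514 and 7558. At these depths members under about 10 CPM, PSMA2 and PSMA6, have the widest intervals.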
